A study of Mus musculus with 6 samples.

Results

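The 10 genes described here are those by which mouse hematopoietic stem cells (HSCs) and multipotent progenitors (MPPs) are recognised and sorted, namely *Slamf1*, *Cd48*, *Kit*, *Ly6a*, *Cd34*, *Flt3*, *Procr*, *Esam*, *Tek* and *Fgd5*. They were taken by symbol from a table of 34573 genes, by their use as markers, and all 10 had enough reads to be among the 14004 genes tested. HSC RNA was sequenced in 3 *Rpl22*-/- and 3 *Rpl22*+/+ libraries, and the comparison asks whether the transcripts that define the HSC differ when *Rpl22*, which encodes a protein of the large ribosomal subunit, is lost. The *Rpl22*-/- mice carried the loss in the germline, so that the cells around the HSCs lacked the gene as well, and the *Rpl22*+/+ mice were the wild-type controls. Mice of both genotypes were young adults backcrossed to the C57BL/6 background, with no treatment named for these samples. Bone marrow cells negative for lineage antigens and CD48 and positive for CD150 were sorted from both genotypes, and the study's own definition of an HSC adds Sca-1 and c-Kit to that gate. Cells of both genotypes were thus chosen on the proteins of *Slamf1* and *Cd48*, and by that definition of *Kit* and *Ly6a*. For these genes the sort limits what a lack of difference can show, and levels before the sort were not measured. The labels do not say whether each library came from a separate mouse or from a pool, so the p-values measure only the spread between these libraries. Values of single libraries are given in the order of replicates 1, 2 and 3, which have no order in time.

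In mouse bone marrow, HSCs lie within the lineage-negative cells that carry Sca-1 and c-Kit (LSK cells), which also hold the MPPs. The SLAM receptors CD150 and CD48 part the LSK cells further, with HSCs positive for the first and negative for the second, while the antigens CD34 and FLT3 appear as stem cells become multipotent progenitors. EPCR, ESAM, TIE2 and an *Fgd5* reporter are other handles for the stem cell, 3 of them on the surface and the last in the cytoplasm. RNA was measured here, and the proteins at the surface were not.

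The libraries held 9321123 to 13385850 reads on genes, the fewest in *Rpl22*+/+ replicate 3. *Rpl22* itself had 449 to 546 reads per *Rpl22*-/- library and 5031 to 7001 per *Rpl22*+/+ library, which matched the labels. Pairs of *Rpl22*-/- libraries differed more than pairs of *Rpl22*+/+ libraries, with a chi-square per degree of freedom over genes of 9.51 to 13.8 against 4.08 to 6.10, so no library was a copy of another. All 15 listed markers of HSCs were detected in every library and tested. This is not a check of the HSC label, since 9 of 10 neutrophil and 8 of 9 megakaryocyte markers were tested too. *Slamf1*, *Kit* and *Ly6a*, among the 15, also encode proteins used to sort HSCs.

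Among the 10 identity genes, *Fgd5* passed the test between the genotypes and the other 9 did not. *Fgd5* was 24.9% lower in *Rpl22*-/- HSCs, a call that was lost in 5 of the 6 fits with 1 library left out, and *Flt3* was 22.1% lower in the estimate without passing. The 2 genes of the SLAM gate and *Ly6a* had estimates on the higher side, and the estimate for *Kit* was 0.231% above the *Rpl22*+/+ level, a sign that changed with library size alone as the scaling. With an adjusted p below 0.05 in edgeR's quasi-likelihood test, adjusted over all genes tested by the Benjamini-Hochberg method, 1 of the 10 was called, lower in *Rpl22*-/- HSCs. Over all genes tested 5.57% were called, 3.28% higher and 2.29% lower, so 1 of 10 is close to that background. For 2 of the 10 genes no library of one genotype lay among those of the other, namely *Fgd5* and *Flt3*, whose 3 *Rpl22*-/- libraries lay lowest, against 26.9% of all genes for either direction and 13.6% for that direction. An unadjusted p below 0.05 was reached by 3 of the 10, *Slamf1*, *Flt3* and *Fgd5*, and by 22.3% of all genes. The estimated log2 fold change was above 0 for 4 genes (3 with library size alone) and below 0 for 6, with a median of -0.069 beside -0.0068 over all genes tested.

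**Figure D1:**
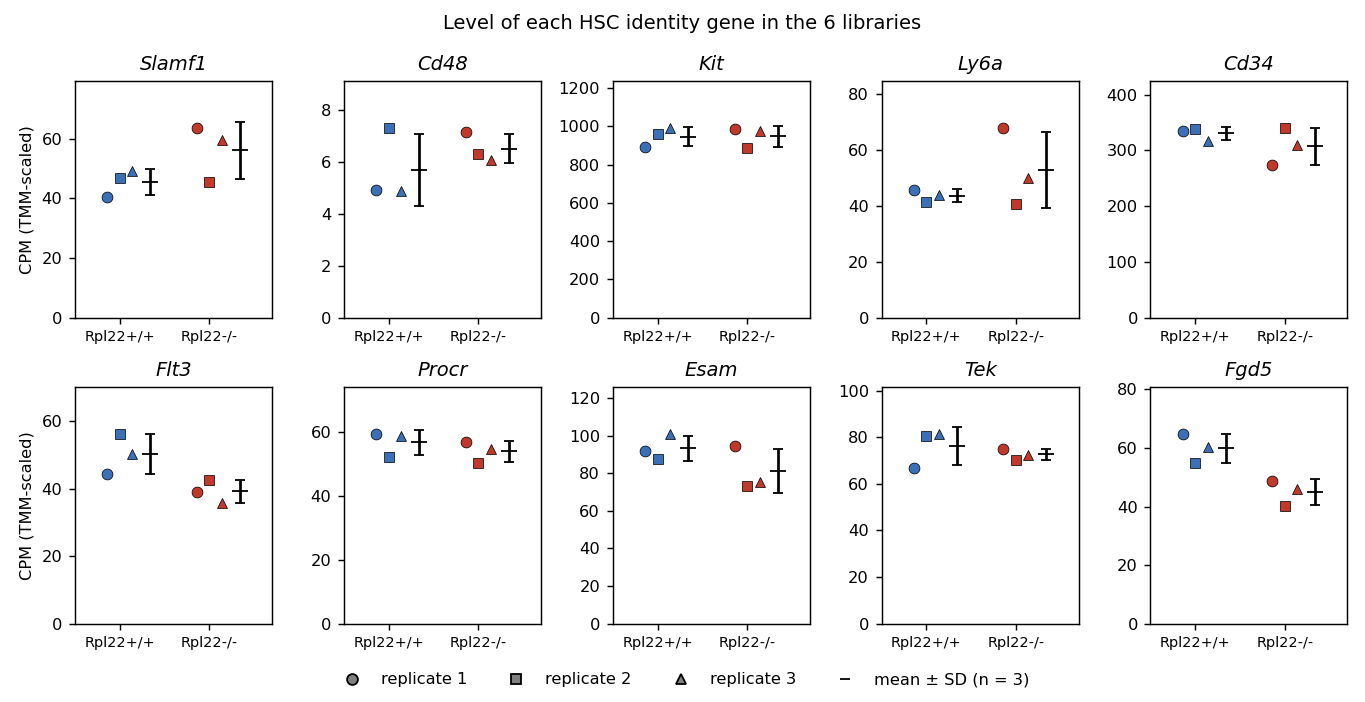
Level of each of the 10 genes in the 6 libraries, in CPM, counts scaled by library size and composition, on axes that start at 0. Points are libraries, their shape gives the replicate number, and bars give the mean ± SD of 3 libraries. The *Rpl22*-/- points lie below all *Rpl22*+/+ points for *Flt3* and *Fgd5*, and the points of the genotypes overlap for the other 8 genes.

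**Figure D2:**
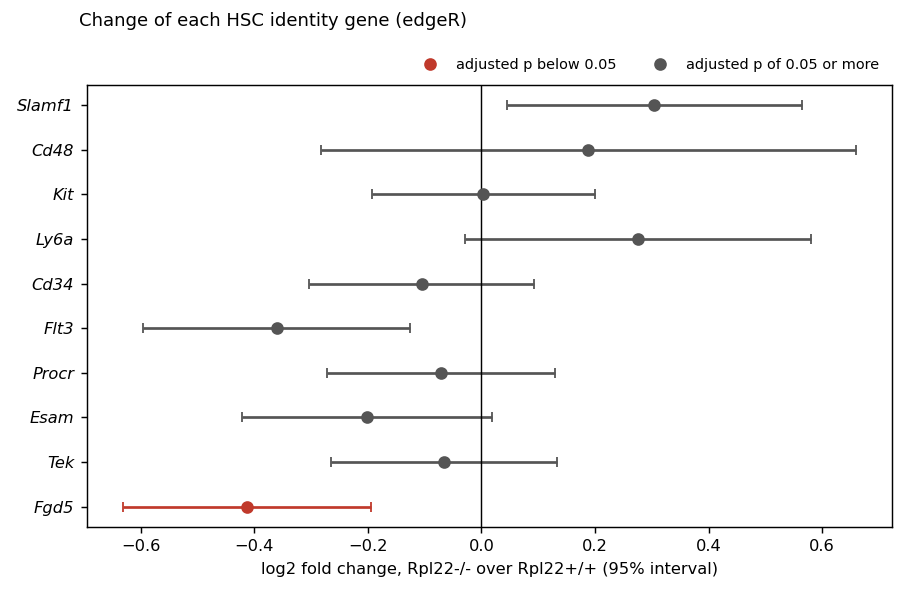
Log2 fold change of each gene in *Rpl22*-/- over *Rpl22*+/+ HSCs, with its 95% interval from edgeR. *Fgd5*, at -0.41, is the gene with an adjusted p below 0.05, and the intervals of *Slamf1*, *Flt3* and *Fgd5* leave out 0.

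The SLAM gate rests on *Slamf1*, which encodes CD150, a self-binding receptor of the signaling lymphocyte activation molecule family, and on *Cd48*, which encodes a lipid-anchored receptor of the same family. Both lie in the SLAM gene cluster on chromosome 1 (GRCm38, or mm10, forward strand), *Cd48* (ENSMUSG00000015355) from 171682009 to 171705258 and *Slamf1* (ENSMUSG00000015316) from 171767127 to 171801184, 61.9 kb apart. Levels are given in CPM, the count divided by the library's size scaled for composition and set to a common size for all libraries. *Slamf1* was at 63.5, 45.4 and 59.5 CPM in *Rpl22*-/- and 40.6, 47.0 and 49.1 CPM in *Rpl22*+/+ HSCs. Replicates 1 and 3 of *Rpl22*-/- were thus above every *Rpl22*+/+ library, while replicate 2 lay among them. The mean was 56.1 ± 9.49 CPM (SD, n = 3) against 45.6 ± 4.40 CPM (SD, n = 3), so that the log2 fold change was 0.30 (SE, the standard error, 0.122, 95% interval 0.045 to 0.56, adjusted p = 0.154 from edgeR). With any single library other than *Rpl22*-/- replicate 2 left out, the adjusted p from edgeR was 0.188 to 0.433. Without *Rpl22*-/- replicate 2 the log2 fold change was 0.44 with an adjusted p of 0.0448 from edgeR. In that library the summed level of 10 neutrophil granule and surface genes was 225 CPM, against 100.3 to 108 CPM in the other *Rpl22*-/- libraries and 66.9 to 106 CPM in the *Rpl22*+/+ libraries, and its part in the level of *Slamf1* was not tested. In RNA from sorted populations, fewer cells with a transcript and less of it per cell cannot be told apart.

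*Cd48* had 47 to 92 reads per library, in cells sorted for lack of its protein. It was at 7.17, 6.33 and 6.08 CPM in *Rpl22*-/- and 4.92, 7.30 and 4.89 CPM in *Rpl22*+/+ HSCs. The highest and the lowest value were both in *Rpl22*+/+ libraries. The log2 fold change was 0.19 (SE 0.222), and its 95% interval of -0.28 to 0.66 was the widest among the 10 genes (adjusted p = 0.670 from edgeR).

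The gate for LSK cells rests on *Kit* and *Ly6a*. *Kit* (ENSMUSG00000005672) encodes c-Kit, the receptor tyrosine kinase for stem cell factor, and lies on the forward strand of chromosome 5 from 75574916 to 75656722. It was at 984, 886 and 976 CPM in *Rpl22*-/- and 890, 959 and 990 CPM in *Rpl22*+/+ HSCs. The libraries of the genotypes were interleaved. Its means were 948 ± 54.6 and 946 ± 51.1 CPM (SD, n = 3 each), and the log2 fold change was 0.0033 (SE 0.0925, adjusted p = 0.988 from edgeR). The 95% interval ran from 0.875-fold to 1.15-fold.

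*Ly6a* (ENSMUSG00000075602) encodes Sca-1, a small lipid-anchored protein of the Ly6 family, and spans 74994877 to 74998031 on chromosome 15, on the reverse strand. It has close copies nearby, and the opening of its coding sequence is shown beside that of *Ly6c1* and *Ly6i* because reads from such stretches can fit more than 1 gene. The sequences are bases 1 to 90 of the longest open reading frame of each transcript in GENCODE M21 (GRCm38), and capitals mark the bases that differ from *Ly6a*, 4 in *Ly6c1* and 6 in *Ly6i*.
Ly6a: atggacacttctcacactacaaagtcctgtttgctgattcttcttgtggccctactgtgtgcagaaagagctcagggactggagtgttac
Ly6c1: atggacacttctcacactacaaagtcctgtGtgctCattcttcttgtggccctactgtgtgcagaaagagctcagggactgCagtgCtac
Ly6i: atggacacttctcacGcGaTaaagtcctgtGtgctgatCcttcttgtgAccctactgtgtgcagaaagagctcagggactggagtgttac

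Over the whole reading frame *Ly6i* was 86.4% identical to *Ly6a* and *Ly6c1* was 78.3% identical over the bases that aligned. The longest unbroken stretch shared between the transcripts was 80 bases with *Ly6i* and 62 bases with *Ly6c1*. These copies had few reads of their own, 0 to 5 for *Ly6i* and 1 to 5 for *Ly6c1*, beside 422 to 867 for *Ly6a*. *Ly6c2*, which was 83.6% identical in coding sequence with a longest shared stretch of 52 bases, had 2 to 110 reads, the most in *Rpl22*-/- replicate 2. How reads that align to more than 1 place were counted is not given in the sources used here, and HTSeq by default leaves them out.

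The level of *Ly6a* was 67.6, 40.6 and 49.8 CPM in *Rpl22*-/- and 45.6, 41.1 and 43.9 CPM in *Rpl22*+/+ HSCs. The highest and the lowest of the 6 values were both in *Rpl22*-/- libraries. Its SD on the log2 CPM scale was 0.370 in *Rpl22*-/- and 0.0764 in *Rpl22*+/+ HSCs. On the log2 scale the difference was 0.28 (SE 0.143, 95% interval -0.029 to 0.58, adjusted p = 0.273 from edgeR). It was 0.060 without *Rpl22*-/- replicate 1 and 0.43 without *Rpl22*-/- replicate 2, with adjusted p-values of 0.780 and 0.0791, so the estimate rests on which of these libraries is kept. The sum of the neutrophil genes given above was highest in *Rpl22*-/- replicate 2, where *Ly6a* was lowest. Of the single genes, *Elane*, *Mpo* and *Ctsg* were highest in that library, *Mpo* at 101 CPM, and the others were not. The part of these genes in the level of *Ly6a* was not tested.

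*Cd34* and *Flt3* mark the step from stem cell to MPP. *Cd34* (ENSMUSG00000016494) encodes a sialomucin that HSCs of adult mice largely lack at the surface and that MPPs carry, and lies on the forward strand of chromosome 1 from 194938819 to 194961279. It was at 274, 340 and 309 CPM in *Rpl22*-/- and 336, 339 and 317 CPM in *Rpl22*+/+ HSCs. Both ends of the range were in *Rpl22*-/- libraries, with replicate 1 the lowest and replicate 2 the highest. The log2 fold change was -0.11 (SE 0.0931, 95% interval -0.30 to 0.092, adjusted p = 0.545 from edgeR). An antisense gene, *Gm16897*, shares 148 exon bases with *Cd34* and has no row of its own, and since the strand setting of the counts is not given, its reads and those of *Cd34* cannot be told apart there.

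*Flt3* (ENSMUSG00000042817) encodes the receptor tyrosine kinase for FLT3 ligand, which marks MPPs with lymphoid potential, and spans 147330741 to 147400489 on chromosome 5, on the reverse strand. It was at 39.1, 42.5 and 35.8 CPM in *Rpl22*-/- and 44.4, 56.0 and 50.4 CPM in *Rpl22*+/+ HSCs. No *Rpl22*-/- library reached any of the *Rpl22*+/+ libraries, and *Rpl22*-/- replicate 2 came closest to them. The mean was 39.1 ± 3.38 CPM (SD, n = 3) against 50.3 ± 5.81 CPM (SD, n = 3), and the log2 fold change was -0.36 (SE 0.111, 95% interval -0.60 to -0.13). With an adjusted p of 0.0675 from edgeR it did not pass the threshold, which it did pass with library size alone as the scaling (adjusted p = 0.0437) and with no filter on low counts (adjusted p = 0.0300).

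The other 4 genes mark the stem cell itself. *Procr* (ENSMUSG00000027611) encodes EPCR, the endothelial protein C receptor, and lies on the forward strand of chromosome 2 from 155751117 to 155755471. It was at 56.8, 50.3 and 54.5 CPM in *Rpl22*-/- and 59.1, 52.2 and 58.7 CPM in *Rpl22*+/+ HSCs. Replicate 2 was the lowest in each genotype and the genotypes overlapped, with a log2 fold change of -0.072 (SE 0.0946, 95% interval -0.27 to 0.13, adjusted p = 0.708 from edgeR).

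*Esam* (ENSMUSG00000001946) encodes an immunoglobulin-like adhesion molecule of endothelium, platelets and HSCs, and lies on the forward strand of chromosome 9 from 37528078 to 37538319. Its level was 94.6, 73.4 and 75.3 CPM in *Rpl22*-/- and 91.9, 87.5 and 100.6 CPM in *Rpl22*+/+ HSCs. Replicates 2 and 3 of *Rpl22*-/- were below every *Rpl22*+/+ library and replicate 1 was among them. The log2 fold change was -0.20 (SE 0.104, 95% interval -0.42 to 0.019, adjusted p = 0.269 from edgeR), and without *Rpl22*-/- replicate 1 it was -0.32 with an adjusted p of 0.0338. With any other single library left out, the adjusted p from edgeR was 0.308 to 0.558.

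*Tek* (ENSMUSG00000006386) encodes TIE2, the receptor tyrosine kinase for angiopoietins, and lies on the forward strand of chromosome 4 from 94739289 to 94874976, 57.5 Mb from the targeted *Rpl22* locus on the same chromosome. It was at 75.0, 70.2 and 72.5 CPM in *Rpl22*-/- and 66.7, 80.4 and 81.2 CPM in *Rpl22*+/+ HSCs. All *Rpl22*-/- values lay between those of the *Rpl22*+/+ libraries. The log2 fold change was -0.066 (SE 0.0940, 95% interval -0.27 to 0.13, adjusted p = 0.732 from edgeR).

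*Fgd5* (ENSMUSG00000034037), which encodes an exchange factor for the GTPase Cdc42 and whose locus drives a reporter of HSCs, lies on the forward strand of chromosome 6 from 91978878 to 92076004. The counts were 626, 484 and 604 reads in *Rpl22*-/- and 841, 682 and 580 reads in *Rpl22*+/+ HSCs. Scaled to library size, these were 48.8, 40.3 and 45.9 CPM against 64.6, 54.7 and 60.3 CPM. Each *Rpl22*-/- library was below each *Rpl22*+/+ library. The mean fell from 59.9 ± 4.95 CPM (SD, n = 3) in *Rpl22*+/+ to 45.0 ± 4.32 CPM (SD, n = 3) in *Rpl22*-/- HSCs, for a log2 fold change of -0.41 (SE 0.103, 95% interval -0.63 to -0.19, adjusted p = 0.0308 from edgeR). For 3 samples against 3, the smallest exact two-sided permutation p is 0.1, so the call rests on the fit across all genes. The estimate stayed between -0.48 and -0.34 in 17 other ways of processing the counts and was called in 12 of them. It was no longer called without *Rpl22*-/- replicate 2 (adjusted p = 0.0984) or replicate 3 (0.1005) or without *Rpl22*+/+ replicate 1 (0.154), replicate 2 (0.0525) or replicate 3 (0.0916), all from edgeR.

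**Figure D3:**
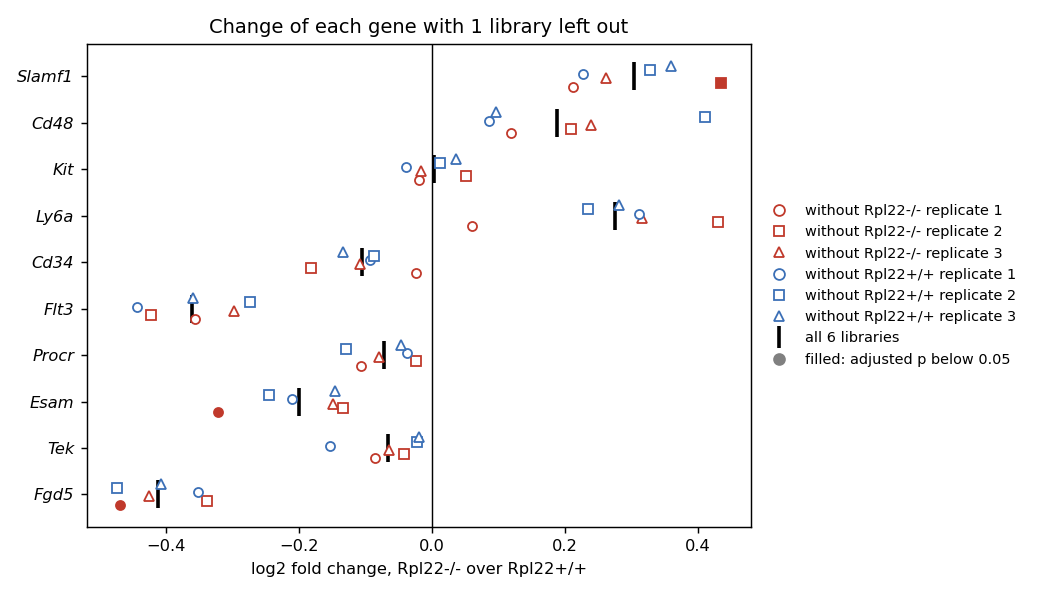
Log2 fold change of each gene in *Rpl22*-/- over *Rpl22*+/+ HSCs with 1 library left out in turn. The colour gives the genotype and the shape the replicate number of the library left out, black bars give the value from all 6 libraries, and filled points have an adjusted p below 0.05 in edgeR. *Ly6a* runs from 0.060 to 0.43, *Fgd5* stays between -0.47 and -0.34, and the filled points are those of *Slamf1* without *Rpl22*-/- replicate 2 and of *Esam* and *Fgd5* without *Rpl22*-/- replicate 1.

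Divided by exon length, the levels of the 10 genes spanned a wide range that was much the same in both genotypes. In *Rpl22*+/+ HSCs the mean CPM per kb of exon was 106 for *Kit*, above 97.9% of the tested genes with a known length, then 45.4 for *Cd34*, 36.1 for *Ly6a*, 32.6 for *Esam* and 27.9 for *Procr*. *Tek* followed at 16.1 CPM per kb, then *Fgd5* at 9.52, *Flt3* at 8.14, *Slamf1* at 7.40 and *Cd48* at 4.80. In that order the libraries of neighbours overlapped between *Ly6a* and *Esam*, between *Fgd5* and *Flt3* and between *Flt3* and *Slamf1*, and were apart elsewhere. The antigen that the cells were sorted for, CD150, thus came from a transcript near the middle of the range, since *Slamf1* was above 47.4% of these genes and *Cd48* above 35.1%. In *Rpl22*-/- HSCs, *Kit* was again at 106 CPM per kb, *Ly6a* at 43.7 and *Cd34* at 42.2 overlapped, and the order of the last 4 became *Slamf1* at 9.12, *Fgd5* at 7.15, *Flt3* at 6.34 and *Cd48* at 5.49, each overlapping its neighbour.

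**Figure D4:**
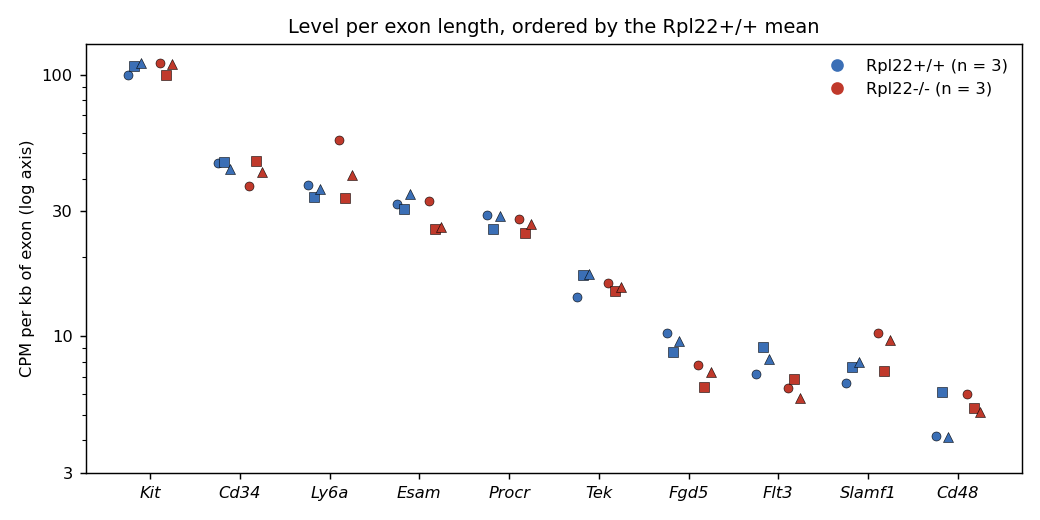
Level of each gene in CPM per kb of exon on a log axis, ordered by the *Rpl22*+/+ mean. Points are the 6 libraries, with circles, squares and triangles for replicates 1, 2 and 3. *Kit* stands highest at 106 CPM per kb in both genotypes, and *Fgd5*, *Flt3*, *Slamf1* and *Cd48* form the low end.

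Ratios of reads within a library do not depend on how libraries are scaled. The ratio of *Slamf1* to *Cd48*, the pair of the SLAM gate, was 8.86, 7.18 and 9.79 in *Rpl22*-/- and 8.27, 6.43 and 10.04 in *Rpl22*+/+ HSCs. *Kit* had 14.6, 21.8 and 19.6 reads per read of *Ly6a* in *Rpl22*-/- and 19.5, 23.3 and 22.5 in *Rpl22*+/+ HSCs. The ratio of *Cd34* to *Flt3*, the MPP pair, was 6.996, 7.99 and 8.64 against 7.56, 6.05 and 6.30. *Rpl22*-/- replicates 2 and 3 were above the *Rpl22*+/+ libraries in this last ratio and replicate 1 was not, and the genotypes overlapped in each of these ratios, as they did for *Procr* to *Cd34*.

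The genes of the same families and pathways were read from the same fit. Beside *Slamf1* and *Cd48*, 4 of 9 listed genes of the SLAM family and its adaptors were tested, the estimates of all 4 were above 0 and 0 were called. *Cd84*, the neighbour of *Slamf1* 38.5 kb away, was at 140.5 ± 11.2 CPM in *Rpl22*-/- and 135 ± 9.27 CPM in *Rpl22*+/+ HSCs (SD, n = 3 each). *Cd244*, which encodes the receptor for CD48, had the smallest p of these 4 tested genes. It had 69, 103 and 134 reads in *Rpl22*-/- and 60, 65 and 74 reads in *Rpl22*+/+ HSCs. The estimate was 0.48 on the log2 scale (SE 0.258, adjusted p = 0.291 from edgeR), and part of it overlaps *Ly9* on the other strand. None of the 4 had an unadjusted p below 0.05 in edgeR, and none was called by DESeq2 or limma-voom.

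Beside *Ly6a*, 3 of 17 listed genes of the Ly6 family had enough reads for the test, of which 2 had an unadjusted p below 0.05 and 0 were called by edgeR, DESeq2 or limma-voom. *Ly6e*, a widely expressed member, had 6591, 5715 and 5630 reads in *Rpl22*-/- and 5358, 4811 and 3817 reads in *Rpl22*+/+ HSCs. Its libraries did not overlap after scaling, at 472 ± 43.1 against 398 ± 12.8 CPM (SD, n = 3 each), with a log2 fold change of 0.25 and an adjusted p of 0.121 from edgeR. Over all genes tested, 13.3% had every *Rpl22*-/- library above, and 22.3% had an unadjusted p below 0.05 in edgeR. *Ly6c2*, which marks monocytes and granulocytes, had the smallest p of the family (adjusted p = 0.102 from edgeR), with 20, 110 and 27 reads in *Rpl22*-/- and 2, 5 and 25 reads in *Rpl22*+/+ HSCs. Its highest library was *Rpl22*-/- replicate 2, the one with the highest sum of neutrophil markers.

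For the receptors among the 10 genes, 14 of 17 listed ligands, partners and signalling genes were tested, 1 was called higher and 0 lower. Over all genes tested 3.28% were called higher and 2.29% lower, so 1 of 14 is close to that background. The called gene was *F2r*, which encodes PAR1, the thrombin receptor that activated protein C also cleaves when bound to EPCR. It was at 267 ± 20.2 CPM in *Rpl22*-/- and 189 ± 14.2 CPM in *Rpl22*+/+ HSCs (SD, n = 3 each), without overlap, and rose by 0.49 on the log2 scale (SE 0.0908, adjusted p = 0.0080 from edgeR). Over all genes tested, 13.3% had every *Rpl22*-/- library above every *Rpl22*+/+ library. Without *Rpl22*-/- replicate 3 the adjusted p of *F2r* was 0.0510 from edgeR. The ligands were chosen for mention by their role, with their values known. *Kitl*, which encodes stem cell factor, had 2 to 9 reads per library. *Angpt1*, which encodes the main activating ligand of TIE2, was at 882 ± 21.3 and 838 ± 25.9 CPM (SD, n = 3 each), with a log2 fold change of 0.074 (adjusted p = 0.669 from edgeR), and *Tie1*, which encodes the partner receptor of TIE2, had one of -0.00022 (adjusted p = 0.999 from edgeR). *Flt3l*, the ligand of FLT3, was at 26.03 ± 5.18 and 28.7 ± 5.27 CPM (SD, n = 3 each).

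Other genes that encode surface proteins of HSCs or serve as reporters of them moved in both directions. Of 27 listed, 26 were tested, with 13 estimates above 0 and 13 below. Of the 26, 3 were called higher and 2 lower in *Rpl22*-/- HSCs, beside 3.28% and 2.29% of all genes tested. Higher were *Cd9*, which encodes a tetraspanin (log2 fold change 0.77, adjusted p = 0.00087), *Itga2b*, which encodes CD41 (0.51, 0.0115), and *Itgb3*, which encodes CD61, the partner of CD41 on platelets (0.47, 0.0216), all from edgeR. *Cd9* rose from 162 ± 19.1 to 278 ± 22.3 CPM and *Itga2b* from 407 ± 47.3 to 579 ± 45.2 CPM (SD, n = 3 each). Lower were *Alcam*, which encodes the adhesion molecule CD166 (-0.52, 0.0160), and *Vldlr*, which encodes a lipoprotein receptor (-0.54, 0.0225). *Alcam* fell from 45.7 ± 3.33 to 31.8 ± 3.29 CPM and *Vldlr* from 44.8 ± 2.08 to 30.9 ± 5.41 CPM (SD, n = 3 each). *Cd9* was called without any 1 of the 6 libraries. *Itga2b* lost its call without *Rpl22*+/+ replicate 1 (adjusted p = 0.0792) or replicate 3 (0.0599), and *Itgb3* without either of these (0.0792 and 0.102) or *Rpl22*-/- replicate 2 (0.0722). *Alcam* was not called without *Rpl22*-/- replicate 2 (0.0511) or replicate 3 (0.0685) or *Rpl22*+/+ replicate 1 (0.0615) or replicate 3 (0.0708), nor was *Vldlr* without *Rpl22*-/- replicate 3 (0.103) or *Rpl22*+/+ replicates 1, 2 or 3 (0.102, 0.0743 and 0.0574), all in edgeR. *Vldlr* was also not called with the trend on gene length removed (0.0526) or that on GC content removed (0.0564).

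Surface genes of multipotent and committed progenitors were mostly above 0 in the estimate, 11 of the 17 tested out of 20 listed. Of the 17, 2 were called higher and 1 lower. Over all genes tested, 6826 of 14004 estimates were above 0, with 3.28% called higher and 2.29% lower. *Cd52*, which encodes a short lipid-anchored glycoprotein of leukocytes, had 68, 138 and 113 reads in *Rpl22*-/- and 46, 57 and 25 reads in *Rpl22*+/+ HSCs. It rose by 1.22 (adjusted p = 0.0234 from edgeR), but was not called without *Rpl22*-/- replicate 2 (0.0998) or replicate 3 (0.0962) or *Rpl22*+/+ replicate 1 (0.0868) or replicate 3 (0.0997). *Tfrc*, which encodes the transferrin receptor, fell by 0.55 on the log2 scale (adjusted p = 0.0075 from edgeR, and 0.0510 without *Rpl22*-/- replicate 3), from 78.7 ± 7.61 to 54.0 ± 4.81 CPM (SD, n = 3 each).

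**Figure D5:**
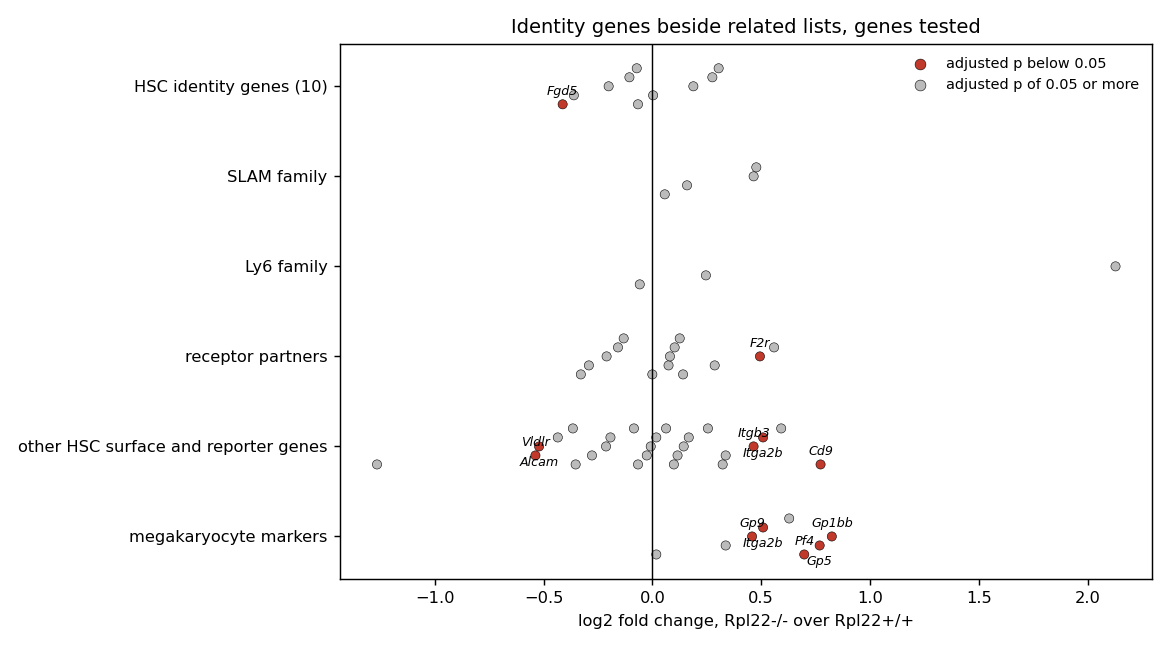
Log2 fold change of *Rpl22*-/- over *Rpl22*+/+ HSCs for the genes tested in 6 of the lists, 1 point a gene, with the 10 identity genes in the top row. Red points have an adjusted p below 0.05 in edgeR and carry their symbol. *Fgd5* at -0.41 is the red point of the top row, the SLAM and Ly6 rows hold none, and 5 of the 8 megakaryocyte markers are red and to the right of 0.

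Of the genes of the lineage-gate antigens, 2 of 9 listed had enough reads for a test, *Ptprc* and *Itgam*, and 0 were called by edgeR. *Itgam* encodes CD11b. *Ptprc* encodes the pan-leukocyte antigen CD45, of which the gate uses only the B220 form, and counts per gene do not tell its forms apart. Of the 2 genes, *Ptprc* had an unadjusted p below 0.05. It was at 263 ± 18.5 CPM in *Rpl22*-/- and 321 ± 15.2 CPM in *Rpl22*+/+ HSCs (SD, n = 3 each), without overlap, with a log2 fold change of -0.29 (adjusted p = 0.0635 from edgeR), and DESeq2 called 1 gene of this list. Over all genes tested, 13.6% had every *Rpl22*-/- library below every *Rpl22*+/+ library. *Cd3e* had 0 reads in every library, which allows up to 3 reads in each, and *Ly6g* had 0 to 3 reads.

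Markers of other cell types were summed over each list in each library. Of 9 megakaryocyte markers, 8 were tested and all 8 were above 0 in the estimate. Of the 8, 5 were called higher, *Gp5*, *Gp1bb*, *Itga2b*, *Gp9* and *Pf4*, beside 3.28% of all genes tested. The sum of the 9 was 1534 to 1771 CPM in *Rpl22*-/- and 1218 to 1430 CPM in *Rpl22*+/+ libraries, with *Gp6* at 0 reads. Of 10 neutrophil markers, 9 were tested, 8 were above 0 and 2 were called higher, *Ctsg* and *Camp*, with the sums given above. Both had few reads, 1 to 163 per library for *Ctsg* and 2 to 47 for *Camp*, and the share called higher over all genes was again 3.28%. The 9 erythroid markers summed to 11.4 to 18.7 against 17.0 to 29.7 CPM. Of 4 tested, 1 was called, *Car1*, lower in *Rpl22*-/- HSCs, beside 2.29% of all genes tested. *Car1* was at 4.13, 2.66 and 5.09 CPM in *Rpl22*-/- and 12.8, 13.0 and 4.68 CPM in *Rpl22*+/+ HSCs. Its *Rpl22*+/+ replicate 3 thus lay among the *Rpl22*-/- libraries. Endothelial markers, of interest because *Tek*, *Esam* and *Procr* are also genes of endothelium, summed to 343 to 429 against 283 to 361 CPM, with *Sox17* at 0 reads and 0 of 5 tested genes called by edgeR. Most of that sum was *Vwf*, also on the megakaryocyte list, at 230 to 315 against 191 to 256 CPM. *Pecam1* followed at 72.3 to 78.9 against 53.9 to 68.6 CPM, while *Cdh5* had 0 to 1 and *Flt1* 1 to 8 reads per library. B cell markers summed to 27.2 to 30.01 against 23.4 to 25.3 CPM with *Ms4a1* and *Igll1* at 0 reads, and T cell markers to 13.4 to 16.7 against 13.1 to 15.7 CPM with *Cd3e* at 0. Macrophage markers summed to 13.4 to 22.7 against 12.9 to 15.9 CPM, and stromal markers to 22.2 to 29.2 against 26.2 to 38.4 CPM with *Adipoq* at 0. Among the 15 HSC markers, 5 of which are among the 10 genes, *Gata2* was called higher (log2 fold change 0.39, adjusted p = 0.0190 from edgeR) and *Fgd5* lower, and 6 estimates were above 0 and 9 below. The part of the megakaryocyte and neutrophil markers in the values of the 10 genes was not tested.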

How the data were processed

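RNA of sorted HSCs was sequenced from TruSeq poly(A)+ libraries, 3 per genotype. The authors checked reads with FastQC, aligned them to mm10 with TopHat2 2.1.1, and deposited the counts of reads that HTSeq gave each gene, whole numbers with no normalization. The annotation release and the strand setting are not given in the sources used here. HTSeq's 5 lines of unassigned reads, 58.6% to 60.9% of a library, were kept out. Per-sample columns left unused numbered 0.

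Genes were kept by filterByExpr (minimum count 10, leaving 14004) and libraries scaled by TMM in edgeR 4.0.16 under R 4.3.3. Genotypes were compared by its quasi-likelihood test without covariates, p-values were adjusted over all 14004 genes by the Benjamini-Hochberg method, and the threshold was 0.05. DESeq2, which the study used, was an alternative. CPM is the count scaled to a common TMM-scaled library size. Each mean covers 3 libraries, so precision rests on 3 values per genotype. Intervals are 95%. Symbols were matched to GENCODE M21 (GRCm38), 29042 directly and 1848 by an older symbol, for positions, union exon lengths and GC content. Copies were found with BLAST 2.17.0 (at least 80% identity over at least 30% of the transcript). Scripts were tested on simulated data.

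The 10 genes and all lists were chosen with earlier results of these data known. Genes named are the 10, *Rpl22*, every called gene of each list of related genes or, where none was called, the one with the smallest p, and for each of the 10 the most alike gene across libraries. Results for some genes within this rule are not reported. Others are marked, or named in the account of cell type markers. Alternatives (17) were scaling by RLE, by upper quartile or by library size alone, testing by limma-voom (limma 3.58.1) or DESeq2 1.42.0, no filter (at least 1 count in any library), at least 10 counts in every library, each library left out, a replicate block, and removal of trends on length or GC content (lowess, span 0.3), singly or together with the block. Tables and plots were made with matplotlib 3.10.9, pandas 2.3.3, scipy 1.17.1 and numpy 2.4.6 in Python 3.11.15.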

Additional observations from a re-analysis of the deposited data

How the results depend on the processing

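Of 170 values of the 10 genes under 17 alternatives, 156 kept their direction and their side of the threshold, 5 passed it newly, 5 no longer passed it and 4 changed sign. All 4 were of *Kit*, whose log2 fold change of 0.0033 became -0.041 with library size alone, -0.020 without *Rpl22*-/- replicate 1, -0.017 without *Rpl22*-/- replicate 3 and -0.039 without *Rpl22*+/+ replicate 1, within a range of -0.039 to 0.051 with 1 library left out. The 5 losses were of *Fgd5* with 1 library left out. The number called among the 10 genes, 1, was 2 with library size alone, with no filter (*Flt3* and *Fgd5* in both) and with length and GC trends removed together with the replicate block (*Slamf1* and *Fgd5*), and 0 to 2 with 1 library left out. Over all genes, 780 calls became 1422 with no filter, 459 with the GC trend removed and 127 to 1720 with 1 library left out, the last without *Rpl22*-/- replicate 1, while DESeq2 called 1057. With library size alone, 43.4% of the calls were higher in *Rpl22*-/- HSCs, against 58.8%, with GC removed 69.7%. The cause of these shifts was not tested.

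Calls in the lists moved as follows. The Ly6 family went from 0 to 1 with no filter, and 0 to 1 with 1 library left out. Receptor partners went from 1 to 2 with DESeq2, no filter or the length trend removed, and 0 to 3 with 1 library left out. Other HSC surface genes went from 5 to 8 with no filter and 1 to 9 with 1 library left out, and progenitor surface genes from 3 to between 1 and 4 with 1 library left out. Lineage-gate antigens went from 0 to 1 with library size alone, DESeq2 or no filter, and 0 to 1 with 1 library left out. The listed genes of the SLAM family, which leave out *Slamf1* and *Cd48*, stayed at 0 in all 17.

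No pairing of the libraries by replicate number was seen, though 3 libraries per genotype cannot exclude one. The correlations of deviations from the genotype means, for numbers 1, 2 and 3, were -0.103, 0.0549 and 0.0448. Between libraries of unlike number they ran from -0.171 to 0.132. The replicate block gave 904 calls over all genes and 1 among the 10, *Fgd5* (adjusted p = 0.0180 from edgeR). *Cd48*, at 47 to 92 reads, was the gene with the least depth.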

Other observations

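The patterns of the 10 genes across the 6 libraries were compared by Pearson's r of log2 CPM, as a description only, since the libraries share genotype and scaling. The lowest r among the 45 pairs was that of *Ly6a* and *Cd34*, at -0.96, with *Ly6a* highest and *Cd34* lowest in *Rpl22*-/- replicate 1 and the reverse in *Rpl22*-/- replicate 2. It was -0.80 without replicate 1 and -0.95 without replicate 2. *Slamf1* and *Cd34* followed, at -0.88.

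Among 35 candidates, the 10 genes and the tested genes of the list of other HSC surface and reporter genes, *Fgd5* was most alike *Alcam* (r = 0.96) and *Esam* most alike *Jam3* (0.96), which encodes a junctional adhesion molecule. *Cd48* was most alike *Vwf* (0.90), *Procr* most alike *Hoxb5* (0.88), *Kit* most alike *Ly75* (0.86), *Flt3* most alike *Vldlr* (0.79), *Slamf1* and *Ly6a* most alike each other (0.79), *Tek* most alike *Kit* (0.77) and *Cd34* most alike *Thy1* (0.67). *Alcam*, the most alike of *Fgd5*, was itself called lower in *Rpl22*-/- HSCs.

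The SD of log2 CPM was larger in *Rpl22*-/- than in *Rpl22*+/+ libraries for 6 of the 10 genes (60.0%), beside 62.5% of the 13062 genes with at least 10 counts in every library. *Cd48*, *Flt3*, *Procr* and *Tek* were those with the larger SD in *Rpl22*+/+ HSCs.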
